A study of Mus musculus with 18 samples.

Results

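The genes described here encode the subunits of the 26S proteasome, the protease that degrades ubiquitin-tagged proteins. They were taken from the deposited table of 22787 mouse genes by symbol, as every Psma, Psmb, Psmc or Psmd gene with a number, without the 3 immunoproteasome genes Psmb8, Psmb9 and Psmb10. The rule found 36 genes. Of these, 16 belong to the core particle (8 Psma genes of the alpha rings and 8 Psmb genes of the beta rings) and 20 to the regulatory particle (6 Psmc ATPases and 14 Psmd genes). At a normalised value of 1 or more, 34 of the 36 were measured in every library. The exceptions were Psma8, the alpha subunit known from testis, and Psmb11, the beta subunit of thymic epithelium.

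The study asked how mTORC1, the kinase complex that couples nutrients to growth, acts in myeloid differentiation. Raptor is a subunit that mTORC1 requires and Tsc2 is an inhibitor upstream of it, so one knockout removes a part of the complex and the other removes a brake on it. Granulocyte-monocyte progenitors (GMP) were sorted from mouse bone marrow, 10000 cells a sample, with 3 libraries from each of 4 genotypes. These were a Raptor KO with its floxed control, Raptor fl/fl, and a Tsc2 KO with its own floxed control, Tsc2 fl/fl. DR-ER-Hoxb8 cells, an immortalised myeloid progenitor line held undifferentiated by estradiol, were taken off estradiol and allowed to differentiate for 3 days in SCF medium with DMSO, rapamycin at 100 nM or SL0101-01 at 10 nM, with 2 libraries a group. Rapamycin inhibits mTORC1, and SL0101 is known as an inhibitor of the ribosomal S6 kinase RSK. Groups follow the sample titles, since the genotype field of the Tsc2 samples names Raptor. The labels give no age, no Cre driver and no statement that replicates are separate mice or cultures, so p-values measure the spread between these libraries, which may be technical. All 6 Hoxb8 libraries come from 1 line.

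The core particle is a barrel of stacked rings. Its outer alpha rings gate the entry, and its inner beta rings hold the catalytic subunits Psmb5 (chymotrypsin-like), Psmb6 (caspase-like) and Psmb7 (trypsin-like). The regulatory particle recognises ubiquitin, removes it with the deubiquitinase Psmd14 and unfolds the substrate with the ring of Psmc ATPases. Its base holds Psmd1, Psmd2 and the ubiquitin receptor Psmd4, and its lid is built from the other Psmd subunits, while Psmd5, Psmd9 and Psmd10 assist assembly of the base and are not part of the finished particle. The transcription factor Nfe2l1 raises proteasome subunit genes through antioxidant response elements when proteolysis is impaired, and in fibroblasts loss of Tsc2 is known to raise them through Nfe2l1. In immune cells Psmb8, Psmb9 and Psmb10 can replace Psmb5, Psmb6 and Psmb7 and alter the peptides produced for MHC class I.

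Promoters are shown because the members moved as a group in the knockouts and these elements are the ones background knowledge ties to them. RefSeq promoters on GRCm38.p6, from 250 bases before to 50 after the start, were found for 29 of the 36 genes. The antioxidant response element was searched as TGACNNNGC on both strands, and its matches are in capitals below, with the Psmc6 match on the other strand.
Psmb5, chr14:54618004-54618072, minus strand: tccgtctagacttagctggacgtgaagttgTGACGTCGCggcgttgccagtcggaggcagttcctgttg
Psmb6, chr11:70525318-70525356, plus strand: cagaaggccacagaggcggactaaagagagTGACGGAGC
Psmd9, chr5:123228129-123228189, plus strand: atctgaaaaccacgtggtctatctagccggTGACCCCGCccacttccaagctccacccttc
Psmc6, chr14:45329574-45329635, plus strand: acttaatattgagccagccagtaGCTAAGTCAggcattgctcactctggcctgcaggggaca
The matches began 47 bases before the start in Psmb5, 9 in Psmb6, 31 in Psmd9 and 227 in Psmc6. With Psmd12, whose match lay 247 bases before the start, 5 of 29 members (17.2%) held the motif, beside 14.0% of 27025 genes. A second motif, CCGGAAG, the core bound by ETS factors, was searched in the same way and is shown because it was unevenly spread over the particles. It was found in 9 of 17 regulatory and 1 of 12 core members, 34.5% of the 29, beside 9.93% of all genes. The windows below hold it as CTTCCGG, its other strand, or as CCGGAAG.
Psmc1, chr12:100110144-100110201, plus strand: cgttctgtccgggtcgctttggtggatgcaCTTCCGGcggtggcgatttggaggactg
Psmc2, chr5:21785161-21785227, plus strand: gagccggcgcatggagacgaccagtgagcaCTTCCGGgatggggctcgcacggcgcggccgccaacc
Psmd6, chr14:14120954-14121020, minus strand: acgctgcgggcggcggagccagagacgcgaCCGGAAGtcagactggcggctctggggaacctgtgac
Psmd12, chr11:107479481-107479527, plus strand: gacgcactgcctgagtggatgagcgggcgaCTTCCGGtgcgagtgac
The CCAAT box was present in 12 of 29 members (41.4%) and 41.1% of all genes. The cAMP response element TGACGTCA was in 0 of 29 members and 2.03% of all genes. The motifs were chosen after the values had been seen, a match is no evidence of binding, and the windows bear no test.

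Values are the authors' normalised fragment counts per gene. Libraries held 2477000 to 3524000 fragments in GMP and 2314000 to 3297000 in Hoxb8 cells, and 10871 to 12585 genes at 1 or more. Tsc2 read 269, 235 and 241 in its controls and 103, 99.0 and 83.0 in its knockouts and fell by 1.38 on the log2 scale (limma adjusted p = 0.00017). Rptor read 88.0, 78.6 and 86.8 in Raptor fl/fl against 61.5, 58.7 and 69.5 in the knockouts, a log2 difference of -0.41 that did not pass (adjusted p = 0.38), and reads outside the deleted part check nothing. The 10 GMP markers were present in every GMP group, led by Mpo, with sums of 71082 to 81872 in Raptor fl/fl, 64538 to 67418 in Raptor KO, 37009 to 82959 in Tsc2 fl/fl and 8702 to 40666 in Tsc2 KO, while 12 erythroid markers summed to 12131 to 24470 in Tsc2 KO and 2900 to 10273 in its control. The Hoxb8 libraries were rich in 7 mature neutrophil markers (53992 to 159197) and had Hbb-b1, Hbb-b2, Hba-a1 and Hba-a2 at 0. In bulk RNA, fewer cells of a type and less RNA per cell cannot be told apart.

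The summed share of the members in the measured RNA differed between groups. They made up 1.03%, 0.942% and 0.936% of the summed values in the Raptor fl/fl libraries, and 0.783%, 0.706% and 0.734% in Raptor KO. In Tsc2 fl/fl the shares were 0.889%, 0.976% and 0.958%, and in Tsc2 KO 1.07%, 1.18% and 1.14%. Each knockout group lay wholly outside its control, Raptor KO below it and Tsc2 KO above it. Hoxb8 cells gave lower shares, 0.639% and 0.689% in DMSO, 0.585% and 0.648% in rapamycin and 0.669% and 0.686% in SL0101-01. The DMSO libraries overlapped with those of each inhibitor, while both rapamycin libraries lay below both SL0101-01 libraries.

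Core genes had higher levels per length than regulatory genes. Per kilobase of transcript, averaged over the 7 groups, the 14 core genes measured everywhere had a median of 679, from Psmb7 at 252 to Psma7 at 993. The 20 regulatory genes had a median of 239.9 per kilobase, from Psmd9 at 55.0 to Psmd14 at 399. Core transcripts are also shorter, with a median of 1162.5 bases against 1710.5. The lowest regulatory genes per kilobase were the assembly factors Psmd9, Psmd5 and Psmd10.

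On the log2(value + 1) scale, the mean over the 14 core genes was 9.99, 9.68 and 9.76 in the Raptor controls and 9.57, 9.26 and 9.36 in their knockouts. It was 9.55, 9.52 and 9.77 in the Tsc2 controls and 9.81, 9.89 and 9.83 in their knockouts. Core levels thus did not overlap within either pair, but the Tsc2 KO libraries lay within the range of the Raptor fl/fl libraries. The mean over the 20 regulatory genes was 8.82, 8.78 and 8.71 in the Raptor controls and 8.53, 8.37 and 8.40 in their knockouts. It was 8.62, 8.87 and 8.77 in the Tsc2 controls and 9.05, 9.22 and 9.20 in their knockouts, each of which was above every library of the other groups. In Hoxb8 cells the core mean lay between 9.01 and 9.35 and the regulatory mean between 8.30 and 8.49 over all 6 libraries.

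Ordered by group mean, the core ran from Tsc2 KO (9.84 ± 0.04, SD, n = 3) through Raptor fl/fl (9.81 ± 0.16), Tsc2 fl/fl (9.62 ± 0.14), Raptor KO (9.39 ± 0.16), Hoxb8 DMSO (9.21 ± 0.20, n = 2) and SL0101-01 (9.17 ± 0.07) to rapamycin (9.15 ± 0.20). The libraries of each group overlapped with those of its neighbours in this order. The regulatory particle ran from Tsc2 KO (9.15 ± 0.09) to Raptor fl/fl (8.77 ± 0.05) and Tsc2 fl/fl (8.76 ± 0.13), then SL0101-01 (8.46 ± 0.04), Raptor KO (8.43 ± 0.08), DMSO (8.41 ± 0.06) and rapamycin (8.33 ± 0.04). Here Tsc2 KO did not overlap with Raptor fl/fl, nor Tsc2 fl/fl with SL0101-01, while both floxed groups overlapped with each other. Among the lowest groups, DMSO and rapamycin were the only neighbours without overlap, by less than 0.01.

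The core mean minus the regulatory mean was 1.04 in Raptor fl/fl, 0.96 in Raptor KO, 0.86 in Tsc2 fl/fl, 0.82 in rapamycin, 0.80 in DMSO, 0.71 in SL0101-01 and 0.69 in Tsc2 KO. Within the Tsc2 pair it was 0.93, 0.65 and 1.00 in the controls and 0.76, 0.67 and 0.64 in the knockouts, which overlap through control replicate 2. Since core transcripts are shorter, a length balance was taken over other genes with a mean value of at least 100. It was the mean of 293 short genes (902.75 to 1229.5 bases) minus that of 965 long genes (1515 to 2324.75 bases). Each gene was first set relative to its own mean over all 18 libraries, unlike in the core minus regulatory difference. The 2 measures thus have different zeros, and only their shifts between groups can be set side by side. That length balance was 0.24 in Raptor fl/fl, 0.11 in Raptor KO, 0.09 in Tsc2 fl/fl, 0.11 in Tsc2 KO, and between -0.30 and -0.22 in Hoxb8 cells. Its part in the core-to-regulatory difference was not tested.

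**Figure D1:**
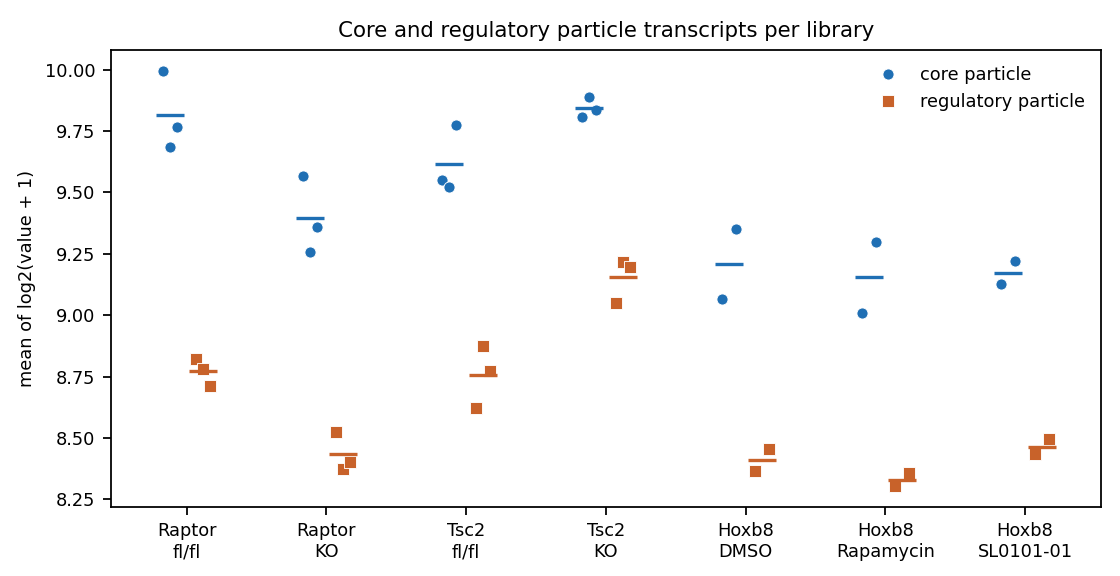
Mean log2(value + 1) of the core particle genes (14) and the regulatory particle genes (20) in each library, by title group; points are libraries and bars are group means. Regulatory levels in Tsc2 KO, 9.05 to 9.22, lie above those of every other library, while core levels in Tsc2 KO lie within the range of Raptor fl/fl.

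Proteasome genes of both particles were lower in Raptor KO. Of 35 members tested against Raptor fl/fl, 12 fell and 0 rose (limma, adjusted p under 0.05), beside 2.42% of 13237 genes that fell, 1.53% that rose and 3.94% called either way. The 12 were evenly divided, 6 of 15 core and 6 of 20 regulatory genes. The median log2 difference over members was -0.40 (core -0.44, regulatory -0.39), against 0.03 over all genes tested. A value below 0 was found for 34 of 35 members, beside 47.1% of all genes, and 24 members had all 3 knockout libraries below all 3 controls, beside 13.1% of all genes. At an unadjusted p under 0.05, 27 members were lower, beside 1317 of 13237 genes that were lower and 19% that passed either way.

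All 3 catalytic beta subunits fell. Psmb7 read 409.8, 385 and 364 in the controls and 278, 221 and 258 in the knockouts, a log2 change of -0.62 ± 0.13 (SE, adjusted p = 0.011). Psmb6 read 948, 771 and 789 in the controls and 661, 468 and 545 in the knockouts (-0.59 ± 0.14, adjusted p = 0.021). Psmb5 read 805, 622 and 712 against 543, 441 and 528 (-0.50 ± 0.13, adjusted p = 0.036). In each of the 3, every knockout library lay below every control library. Psmb3, a structural beta subunit, fell by 0.54, and the alpha subunits Psma7 and Psma2 fell by 0.59 and 0.52. Psma7 read 1541, 1290.0 and 1295 in the controls against 1053, 818 and 872. At the other end of the core were Psmb4 (-0.11), Psma3 (-0.25) and Psmb1 (-0.30), none of which passed, and Psma8 had the lowest core value (-0.79, adjusted p = 0.36) at values of 8.92 to 43.0.

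In the regulatory particle the largest drop was that of the lid subunit Psmd13, which read 517, 521 and 454 in the controls and 292, 322 and 329 in the knockouts, 1.58-fold lower (log2 -0.66 ± 0.12, adjusted p = 0.0045). The ATPases Psmc5, Psmc4 and Psmc3 fell by 0.58, 0.49 and 0.44, and the other 3 had values of -0.36 to -0.40, so that all 6 ATPases had non-overlapping groups. Psmc5 read 438, 488 and 390.3 in the controls against 329, 257 and 294. The assembly factor Psmd10 had a value of -0.49 without passing (adjusted p = 0.23), with 172, 163 and 150.1 against 126, 125 and 95.8. The scaffold Psmd1 fell by 0.49, and the lid subunit Psmd8 fell by 0.47. The ubiquitin receptor Psmd4 (-0.15, adjusted p = 0.59) and the deubiquitinase Psmd14 (-0.24, adjusted p = 0.25) did not pass. The highest regulatory values were those of the lid subunits Psmd3 (0.07), Psmd12 (-0.06) and Psmd11 (-0.09). Psmd12 read 447, 373 and 364 against 383, 333 and 416, and its groups overlapped.

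The number that passed rested on single libraries, since it was 1 without Raptor KO replicate 2, 2 without Raptor KO replicate 3 or Raptor fl/fl replicate 1, and 6 without Raptor fl/fl replicate 2 or 3. It was 7 with quantile normalisation, 1 without the variance trend and 19 with the 2 Raptor groups fitted alone, while Psmd13 passed in every fit that left out a library. A group of 4 nuclear-retained RNAs led by Malat1, which can mark RNA quality, summed to 1086.5 to 1736 in the controls and 2154 to 3797 in the knockouts. The 8 B lymphoid markers summed to 740.3 to 1067 against 106 to 148, and the 12 erythroid markers to 3727 to 4251 against 1766 to 2346. The 5 megakaryocyte markers summed to 957 to 1146 against 360.5 to 411, the 7 mature neutrophil markers to 646 to 1857 against 377 to 474, and the 8 macrophage markers to 277 to 313 against 458 to 1071. None of these sums overlapped between the 2 groups. Gpnmb led the macrophage sums of the knockouts, at 0, 1.56 and 4.06 in the controls against 164, 580 and 408. Vcam1, of the same list, was lower in the knockouts (44.7, 23.35 and 25.15 against 21.2, 5.95 and 14.1). Lcn2, of the neutrophil list, was higher, at 77.9, 54.5 and 141 against 311, 256 and 329. The part of these sums and genes in the lower proteasome values was not tested.

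Proteasome genes were higher in Tsc2 KO, and those that passed in the main fit were all of the regulatory list. Of 35 members, 7 rose and 0 fell, beside 5.26% of 13237 genes that rose, 7.12% that fell and 12.4% called either way. They were 7 of 20 regulatory and 0 of 15 core genes, and 5 of 17 regulatory genes without the 3 assembly factors. However, 4 core and 16 regulatory genes were higher at an unadjusted p under 0.05. At that level 1654 of 13237 genes were higher, and 27.2% of all genes passed either way. The lowest adjusted p in the core was 0.052, for Psmb4. The median log2 difference was 0.30 (core 0.25, regulatory 0.37), against -0.02 over all genes, and a core gene that did not pass is not shown to be level. A value above 0 was found for 34 of 35 members, beside 48.4% of all genes, and 24 had all 3 knockout libraries above all 3 controls, beside 14.6%. Whether the core and the regulatory particle differed in this response was not tested gene against gene.

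The largest rises were those of base assembly factors. Psmd9 read 150.0, 197 and 164 in the controls and 237, 364 and 257 in the knockouts, 1.66-fold higher (log2 0.73 ± 0.18, adjusted p = 0.015). Psmd10, also known as gankyrin, read 73.7, 131 and 131 against 141, 195 and 199 (0.70 ± 0.22, adjusted p = 0.045), and its control replicate 1 was the lowest GMP library. Of the ATPases, Psmc2 read 345, 500.0 and 368 against 546, 631 and 619 (0.58 ± 0.15, adjusted p = 0.015) and Psmc1 read 409, 494 and 509 against 643, 655 and 734 (0.53 ± 0.13, adjusted p = 0.012). In all 4 genes the groups did not overlap. In the lid, Psmd13 rose by 0.46, Psmd12 by 0.42 and the deubiquitinase Psmd14 by 0.39. Psmd14 read 595, 629 and 625 against 845, 830.1 and 758. The lowest regulatory values were Psmd11 (0.17), Psmc4 (0.23) and Psmc3 (0.27).

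The catalytic subunits had higher means in Tsc2 KO without passing. Psmb7 read 336, 346 and 354 in the controls and 414, 424 and 450.4 in the knockouts (0.31 ± 0.13, adjusted p = 0.12), and its groups did not overlap. Psmb5 read 577, 616 and 704 against 737, 759 and 781 (0.27, adjusted p = 0.18), again without overlap. Psmb6 read 663, 673 and 804 against 724, 792 and 747 (0.08, adjusted p = 0.75), with the knockouts inside the control range. The highest core values were those of Psmb4 (0.39), Psmb7 and Psma5 (0.30), and the lowest those of Psma8 (-0.23), Psma1 (0.08) and Psmb6. The ubiquitin receptor Psmd4 had a value of 0.33 (adjusted p = 0.11), with 411, 506 and 440.2 against 514, 607 and 583.

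The 7 calls became 0 without Tsc2 fl/fl replicate 1, 1 without Tsc2 KO replicate 2 or 3 and 2 without Tsc2 fl/fl replicate 3, and they were 2 with quantile normalisation and 0 without the variance trend or with the 2 Tsc2 groups fitted alone. In some fits 1 core gene was called higher: at a common total, with the filter at 5, with the replicate block and without Tsc2 KO replicate 1. Tsc2 fl/fl replicate 2 and Tsc2 KO replicate 2 held Y-linked transcripts (4 genes summing to 385 and 318, against 0.778 at most in the other GMP libraries), and without both of them 3 genes passed. Beside these changes, the sum of the 12 erythroid markers was higher in Tsc2 KO without overlap, as given above. Within that list Alas2 overlapped, at 15.6, 27.1 and 46.1 in the controls against 23.2, 29.6 and 38.5. The sums of the 10 GMP markers ran lower but overlapped. Kit, of the GMP list, did not run lower (1012, 884 and 1052 against 1056, 1015 and 1281). The 4 nuclear-retained RNAs summed to 634 to 1136, against 1194 to 1332 in the controls. Car2, the highest erythroid marker, read 1158, 4770 and 2143 in the controls and 6178, 11910 and 11138.5 in the knockouts. Car2 ranked these libraries in the same order as their regulatory means. Mpo read 48343, 23511 and 52221 against 24793, 4820 and 7520. Control replicate 2 was thus the control with the most Car2 and the least Mpo. The 8 macrophage markers summed to 71.1 to 271 in the controls and 571 to 754 in the knockouts, without overlap. Gpnmb led the knockout sums, at 0, 1.69 and 0 in the controls against 259, 535 and 426. Csf1r, of the same list, did not rise (163, 54.15 and 199 against 118, 27.5 and 67.4). The 8 B lymphoid markers summed to 328 to 539 against 20.7 to 74.2 and the 5 megakaryocyte markers to 334 to 647 against 134 to 163, both without overlap. The 7 mature neutrophil markers overlapped (401 to 1492 against 1040.0 to 3345). Their part in the higher proteasome values was not tested.

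**Figure D2:**
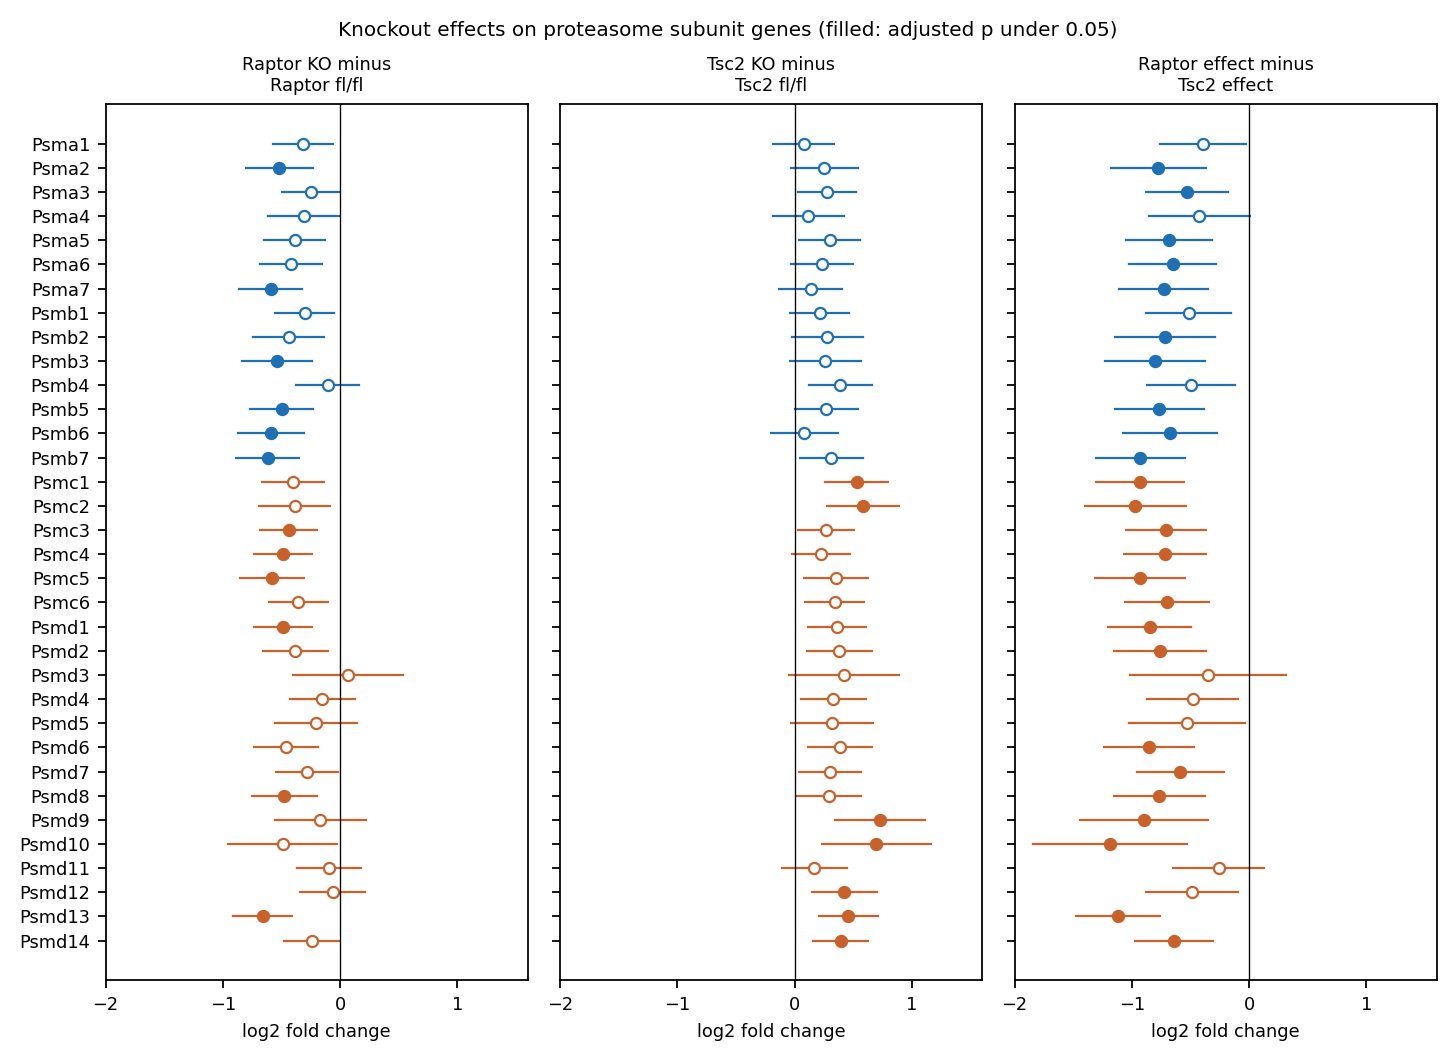
Log2 fold change of 34 proteasome genes (Psma8 and Psmb11 not drawn) in Raptor KO, in Tsc2 KO and for the Raptor effect minus the Tsc2 effect; points are limma estimates, bars are 95% intervals, filled points have an adjusted p under 0.05 and colour gives the particle. The 12 filled points for Raptor lie below 0 in both particles, the 7 for Tsc2 lie above 0 in the regulatory particle and the 25 for the difference lie below 0.

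**Figure D3:**
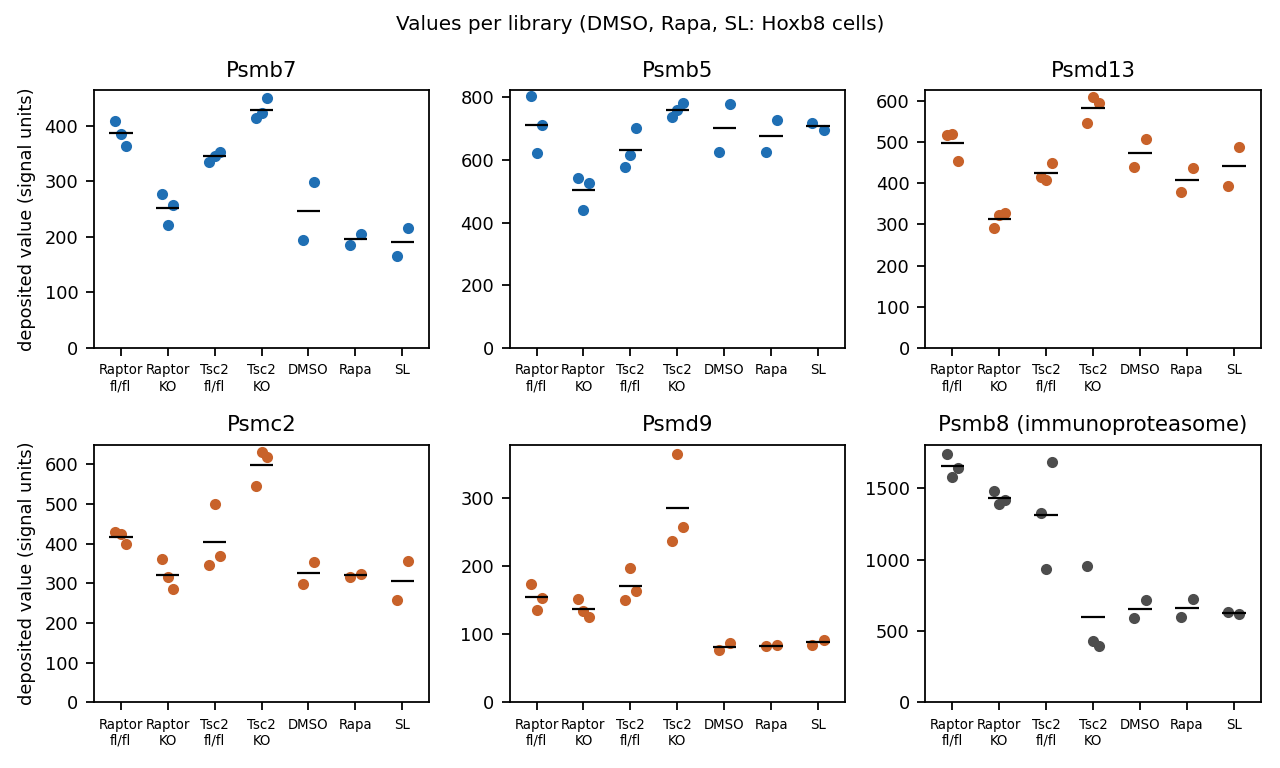
Deposited values of Psmb7, Psmb5, Psmd13, Psmc2, Psmd9 and the immunoproteasome gene Psmb8 in each library, by title group; points are libraries, lines are group means and each axis starts at 0. Psmd13 is lowest in Raptor KO, 292 to 329, and highest in Tsc2 KO, 546 to 611, while Psmb8 has its lowest values in Tsc2 KO replicates 2 and 3, 431 and 398.

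Both knockout effects differed from each other for most members. The difference was tested directly, as the Raptor effect minus the Tsc2 effect, and 25 of 35 members were lower and 0 higher, beside 6.44% of 13237 genes that were lower, 5.99% that were higher and 12.4% called either way. They were 10 of 15 core and 15 of 20 regulatory genes, among them all 6 ATPases and all 3 catalytic subunits. All 35 values were below 0, beside 46.2% of all genes, and their median was -0.71 (core -0.67, regulatory -0.74) against 0.08 over all genes. Of the 35, 33 had a value below 0 in Raptor KO and above 0 in Tsc2 KO.

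Psmd13 had the lowest adjusted p of the members, with a difference of -1.12 ± 0.17 (2.17-fold, adjusted p = 0.00088). It was the only gene called in both knockouts, 8.33% of the Raptor calls and 14.3% of the Tsc2 calls. Psmd10 had the largest difference (-1.19 ± 0.31, adjusted p = 0.019), followed by Psmd13 and then Psmc2 (-0.97). Psmb7, Psmc5 and Psmc1 each differed by -0.93, the assembly factor Psmd9 by -0.90 and the scaffold Psmd1 by -0.85. In the core, Psmb3 followed with -0.80, then Psma2 and Psmb5 with -0.77, and the catalytic Psmb6 passed with -0.67. A further 8 members passed in the difference alone, such as the base scaffold Psmd2 (-0.76) and the lid subunit Psmd6 (-0.85). The smallest differences that passed were Psma3 (-0.53), Psmd7 (-0.59) and Psmd14 (-0.64). The ubiquitin receptor Psmd4 (-0.48, adjusted p = 0.098) and the lid subunits Psmd3 (-0.35, adjusted p = 0.50) and Psmd11 (-0.26) did not pass, nor did the core genes Psmb4 (-0.50), Psma4 (-0.43) and Psma1 (-0.39). The count was 15 with quantile normalisation, 5 without the variance trend and 17 to 28 with any 1 library left out.

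Part of such a difference can come from the controls, which were compared as well. In Tsc2 fl/fl against Raptor fl/fl, 0 of 35 members passed, beside 0.604% of 13237 genes, with 6 members at an unadjusted p under 0.05 (1 higher, 5 lower), beside 13.4%. The core median was -0.18 and the regulatory median -0.03. The lid subunit Psmd3 had the largest value, reading 185, 259 and 314 in the Raptor controls against 329, 573 and 525 in the Tsc2 controls (0.90 ± 0.22, adjusted p = 0.084), without overlap. Within the knockout pairs its values were 0.07 and 0.42. The lowest values between controls were those of Psmd10 (-0.57), Psma7 (-0.38) and Psmc6 (-0.34), none of which passed, with Psmd8 at -0.26 and, in the core, Psma6 at -0.32 and Psmb1 at -0.29. The catalytic subunits lay between -0.23 (Psmb6) and -0.16 (Psmb7), with Psmb5 at -0.17. The highest values after Psmd3 were those of Psmd11 (0.22) and Psmd9 (0.14), and in the core those of Psma8 (0.07), Psma4 (-0.06) and Psmb4 (-0.07). Psmd14 had a value of -0.15 and Psmd4 one of 0.07. The immunoproteasome genes Psmb8 (-0.37), Psmb9 (-0.22) and Psmb10 (-0.39) did not pass.

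Genes that work with the proteasome moved less uniformly in the knockouts. The 3 immunoproteasome subunits fell in Tsc2 KO, where Psmb8 read 1327, 936 and 1684 in the controls and 956, 431 and 398 in the knockouts (-1.22 ± 0.30, adjusted p = 0.025). Psmb9 read 306, 223 and 325 against 213, 127 and 91.9 (-1.05 ± 0.24, adjusted p = 0.0092), and Psmb10 read 252, 208 and 256 against 216, 144 and 122 (-0.60 ± 0.19, adjusted p = 0.047). Replicate 1 of Tsc2 KO was the highest of its group in all 3, and its Psmb8 and Psmb10 overlapped with the controls. In Raptor KO the 3 had values of -0.21, -0.22 and -0.06 and none passed. Of the 3 calls in Tsc2 KO, 0 were left without Tsc2 KO replicate 3 or with the 2 Tsc2 groups fitted alone, and 1 without Tsc2 KO replicate 2, without Tsc2 fl/fl replicate 1 or 3, or without the variance trend. The difference between the knockout effects did not pass for any of them (1.01, 0.83 and 0.55, lowest adjusted p 0.12).

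Per kilobase, Psmb8 stood at 1.29 ± 0.107 (SD, n = 3) times Psmb5 in Raptor fl/fl and at 1.58 ± 0.145 times in the knockouts. The ratio was 1.14 ± 0.265 in Tsc2 fl/fl and 0.716, 0.314 and 0.281 in the Tsc2 KO libraries. In Hoxb8 cells it was 0.517 in DMSO, 0.536 in rapamycin and 0.487 in SL0101-01 (n = 2 each). Per kilobase, Psmb8 thus exceeded Psmb5 in every library of both Raptor groups and was below it in every Tsc2 KO and Hoxb8 library. The Tsc2 controls lay on both sides, at 1.27, 0.839 and 1.32. These ratios depend on the transcript lengths used, 1628 bases for Psmb8 and 899 for Psmb5. Without division by length, Psmb8 exceeded Psmb5 in Tsc2 KO replicate 1. Psmb10 over Psmb7 was 0.827, 0.602 and 0.729 in the Raptor controls and 0.930, 1.31 and 0.962 in the knockouts, so that it exceeded 1 in a single library. Its mean was 0.613 in Tsc2 fl/fl and 0.335 in Tsc2 KO, and 0.452 to 0.670 in the Hoxb8 groups. Psmb9 stayed under Psmb6 in every library, with ratios of 0.0726 to 0.320. The ratios were chosen after the values had been seen and were not tested.

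Of 11 activator, inhibitor and accessory genes, 1 rose in Raptor KO and none fell, and 2 rose and 1 fell in Tsc2 KO. Over all 13237 genes, 3.94% were called either way in Raptor KO and 12.4% in Tsc2 KO. The proteasome-bound deubiquitinase Usp14 rose in both (0.44, adjusted p = 0.048, and 0.39, adjusted p = 0.041). It read 460.3, 452 and 536 in the Raptor controls against 656, 689.7 and 614, and 467, 539 and 468 in the Tsc2 controls against 589, 682 and 661. Psmf1, an inhibitor of the core particle, rose in Tsc2 KO by 0.73 (limma adjusted p = 0.014). Psme1, a subunit of the 11S activator, fell there by 0.42, and its groups overlapped. The ubiquitin receptor Adrm1 differed between the effects by -0.79 (adjusted p = 0.013). Of the 5 core assembly chaperones none passed in either knockout, with 1 and 0 at an unadjusted p under 0.05. Pomp, the maturation factor of the core, differed between the effects by -0.74 (adjusted p = 0.021). It read 496, 403 and 389 in the Raptor controls against 359, 277 and 299, and 363, 321 and 369 in the Tsc2 controls against 393, 457 and 427.

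Among 13 genes around Nfe2l1, 0 passed in Raptor KO (5 at an unadjusted p under 0.05) and 1 rose in Tsc2 KO. Beside the counts in this paragraph, 3.94% of 13237 genes were called in Raptor KO and 12.4% in Tsc2 KO. At an unadjusted p under 0.05 (limma) these shares were 19% and 27.2%. Nfe2l1 itself read 83.7, 77.8 and 117 in the Raptor controls and 132, 120.4 and 133 in the knockouts (0.49, adjusted p = 0.19), and 132, 146 and 120.4 in the Tsc2 controls and 139, 99.0 and 97.0 in the knockouts (-0.26, adjusted p = 0.45). Its difference passed in neither pair. The related factor Nfe2l2 rose in Tsc2 KO by 1.14 (adjusted p = 0.0040), reading 121, 280.0 and 190.0 in the controls and 386, 448 and 402 in the knockouts. The small Maf protein Mafg and the repressor Bach1, which act at the same elements, differed between the effects by 1.55 (adjusted p = 0.013) and 1.33 (adjusted p = 0.034). Of 17 ubiquitin, shuttle and segregase genes, 0 passed in either knockout, with 2 and 3 at an unadjusted p under 0.05. Of 8 class I antigen processing genes, 0 passed in Raptor KO (2 at an unadjusted p under 0.05), and 2 fell in Tsc2 KO, the peptide trimmer Erap1 (-0.65) and the transporter Tap1 (-0.63).

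No proteasome gene passed in Hoxb8 cells under either inhibitor. In rapamycin against DMSO, 0 of 34 members passed (limma), beside 11.7% of 11804 genes, and 0 had an unadjusted p under 0.05, beside 24.4%. The median was -0.12 (core -0.08, regulatory -0.14) against -0.01 over all genes. The lowest core values were those of Psmb7 (-0.30), Psmb3 (-0.23) and Psma7 (-0.20), and the highest those of Psma4 (0.34), Psma6 (0.22) and Psmb1 (0.12). Psmb7 read 194 and 299 in DMSO and 186 and 205 in rapamycin, where the groups overlapped. The 95% interval for Psmb5 ran from -0.36 to 0.26 and that for Psmb7 from -0.72 to 0.11, so a drop of the size seen in Raptor KO lies inside the second and outside the first. In the regulatory particle the lowest values were those of Psmd2 (-0.26), Psmd8 (-0.24) and Psmd13 (-0.22). Psmd13 read 440.1 and 508 in DMSO against 379 and 437 in rapamycin. The lid subunit Psmd7 had the highest regulatory value (0.30, adjusted p = 0.25), reading 251 and 219.9 against 287 and 293, followed by Psmc5 (0.21). Psmb6 (-0.19), Psmd14 (-0.19) and Psmd4 (0.13) did not pass, and Psmb8, Psmb9 and Psmb10 had values of 0.003, -0.003 and 0.27. The 10 GMP markers summed to 12665 to 13863 in DMSO, 60701 to 60951 in rapamycin and 26387 to 34352 in SL0101-01, and the 7 neutrophil markers to 114671 to 159197, 62576 to 96521 and 53992 to 81370. The 4 nuclear-retained RNAs summed to 2372 to 2407 in DMSO, 2988 to 3314 in rapamycin and 1606.5 to 1650 in SL0101-01. In the same order, 4 monocyte markers summed to 5808 to 6765, 3218 to 3635 and 3257 to 3464. The 8 macrophage markers summed to 1929 to 2167, 482 to 972 and 1046 to 1278. In these 3 lists DMSO overlapped with neither inhibitor. The part of these differences in the proteasome values was not tested.

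In SL0101-01 against DMSO, 0 of 34 members passed, beside 10.9% of 11804 genes, and 4 had an unadjusted p under 0.05 (3 higher, 1 lower), beside 23.9%. The median was 0.03. The ATPase Psmc6 came closest on the lower side, reading 326 and 412 in DMSO and 236 and 279.6 in SL0101-01 (-0.51 ± 0.17, adjusted p = 0.055), followed by Psmd10 (-0.41) and Psmc1 (-0.18). On the higher side were Psmd7, with 251 and 219.9 against 318 and 339 (0.48, adjusted p = 0.054), Psmd3 (0.51, adjusted p = 0.084) and Psmd5 (0.40). In the core the range ran from Psmb7, Psma2 (-0.30) and Psmb3 (-0.17) to Psma3 (0.12), Psma7 (0.17) and Psma5 (0.21). The catalytic subunits had values of 0.02 (Psmb5), -0.11 (Psmb6) and -0.35 (Psmb7), Psmd14 one of -0.02 and Psmd4 one of 0.05. The immunoproteasome genes lay between -0.12 and -0.05.

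Both inhibitors were also compared with each other, and 1 member passed, beside 4.44% of 11804 genes that were lower in rapamycin, 4.43% that were higher and 8.87% called either way. This was Psmd3, which read 261 and 239 in rapamycin and 469.6 and 302 in SL0101-01 (-0.59 ± 0.18, adjusted p = 0.048). The SL0101-01 libraries of Psmd3 were far apart, and the call was lost under quantile normalisation and with either other pseudocount. The assembly factor Psmd5 (-0.53) and the lid subunits Psmd6 and Psmd11 (each -0.45) followed without passing, and the highest regulatory values were those of Psmc6 (0.37), Psmd10 (0.35) and Psmc3 (0.09). In the core, the lowest values were those of Psma7 (-0.37), Psma3 (-0.25) and Psma5 (-0.17) and the highest those of Psma4 (0.26), Psmb1 (0.24) and Psma2 (0.19). The catalytic subunits had values of -0.07 (Psmb5), -0.08 (Psmb6) and 0.05 (Psmb7), Psmd14 one of -0.16 and Psmd4 one of 0.08. The immunoproteasome genes Psmb8 (0.07), Psmb9 (0.12) and Psmb10 (0.32) did not pass either. Outside the members, Psmg1, a chaperone of alpha ring assembly, rose in rapamycin by 0.68 (adjusted p = 0.021) and in SL0101-01 by 0.72 (adjusted p = 0.016), comparisons that share the DMSO libraries. It read 94.0 and 109.6 in DMSO, 155 and 171 in rapamycin and 161 and 176 in SL0101-01. Psme2, a partner of Psme1, fell in rapamycin by 0.74 (adjusted p = 0.032), and Nfe2l2 fell by 0.62 (adjusted p = 0.011). Rps27a, which encodes ubiquitin fused to a ribosomal protein, rose in rapamycin by 0.81 (adjusted p = 0.00054).

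**Figure D4:**
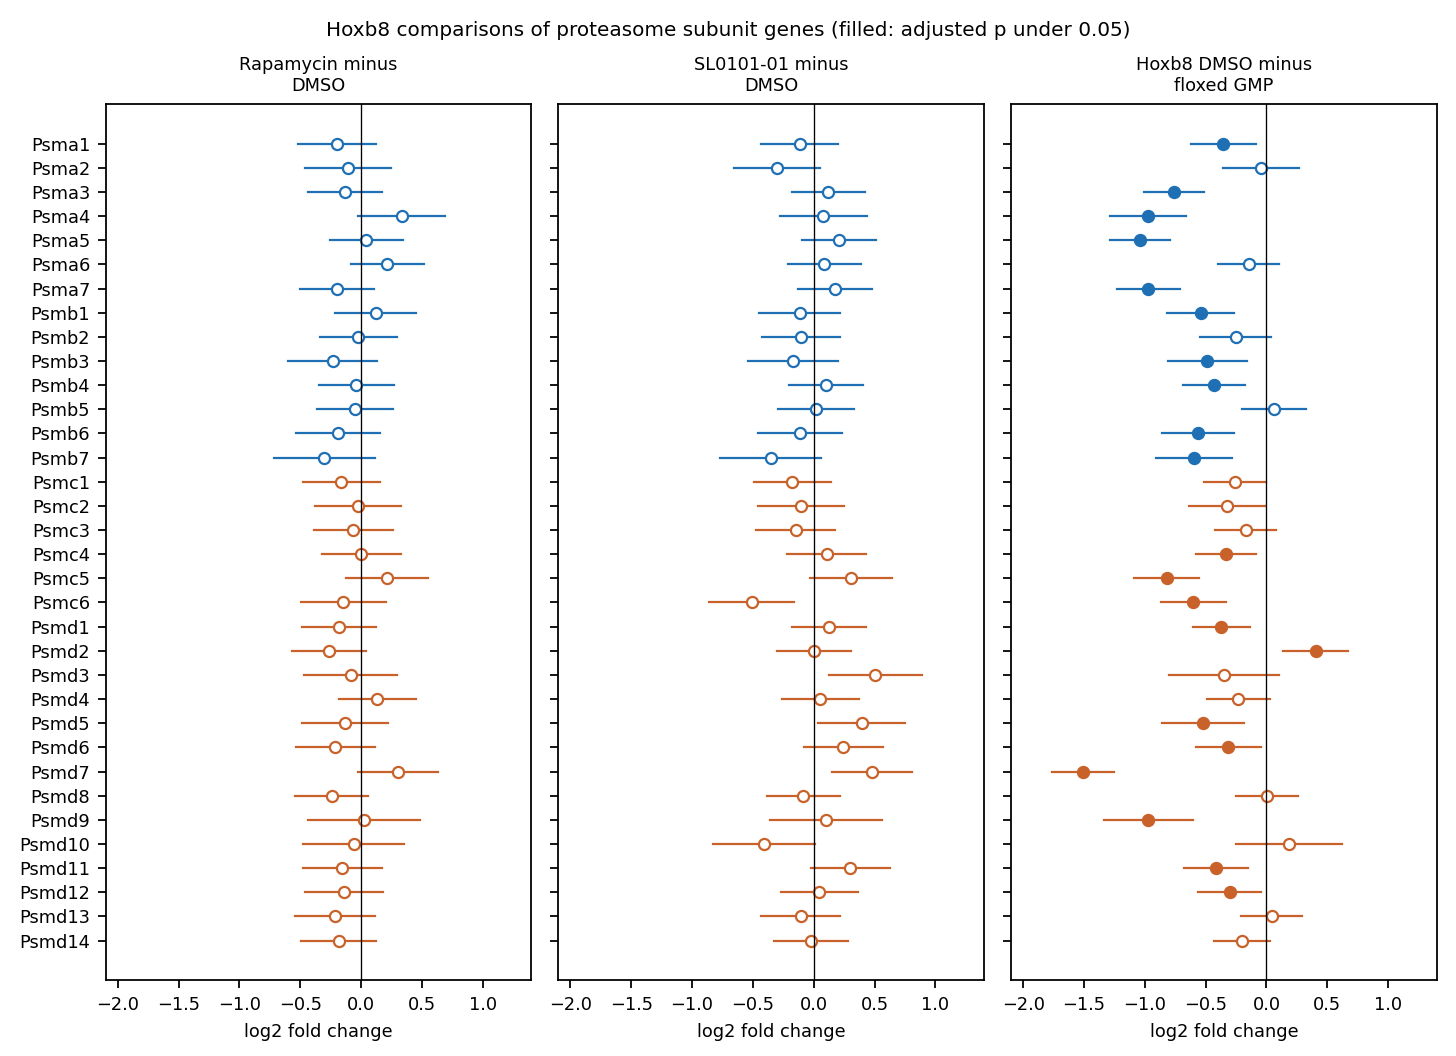
Log2 fold change of 34 proteasome genes in Hoxb8 cells in rapamycin and in SL0101-01 against DMSO, and in Hoxb8 DMSO against the floxed GMP; points are limma estimates, bars are 95% intervals, filled points have an adjusted p under 0.05 and colour gives the particle. No point is filled for either inhibitor, and Psmd7 (-1.51) and Psmd2 (0.40) mark the ends of the comparison with GMP.

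Differentiated Hoxb8 cells held less proteasome RNA than sorted GMP. In Hoxb8 DMSO against the mean of both floxed GMP groups, 21 of 36 members were lower and 1 higher, beside 28.1% of 14397 genes that were lower and 21.6% that were higher (49.7% called either way). The lower genes were 11 of 16 core and 10 of 20 regulatory members. The median was -0.35 (core -0.51, regulatory -0.32), against -0.15 over all genes. Cell source, culture and preparation cannot be told apart in this comparison. The median over all genes was -0.03 with quantile normalisation and -0.24 at a common total, and values are best read against it.

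Among the 34 members measured everywhere, values ran from -1.51 to 0.40. The lid subunit Psmd7 read 749.6, 641 and 593 in Raptor fl/fl and 612, 753 and 699.7 in Tsc2 fl/fl, but 251 and 219.9 in Hoxb8 DMSO (-1.51 ± 0.12, 2.85-fold lower, adjusted p = 8e-10). Its partner Psmd14 was not called lower (-0.20, adjusted p = 0.14). The alpha subunit Psma5 read 989.9 to 1234 in Raptor fl/fl, 899 to 1070.3 in Tsc2 fl/fl and 493 and 532 in DMSO (-1.04 ± 0.12). Psma4 and Psma7 were each lower by a log2 value of -0.97, as was the assembly factor Psmd9, with 76.6 and 87.1 in DMSO. The ATPase Psmc5 (-0.82), the alpha subunit Psma3 (-0.76) and the ATPase Psmc6 (-0.60) were lower as well. Psmc5 read 390.3 to 488 in Raptor fl/fl, 393 to 424 in Tsc2 fl/fl and 220.4 and 261 in DMSO. Of the catalytic subunits, Psmb7 (-0.60) and Psmb6 (-0.56) were lower and Psmb5 was not (0.06, adjusted p = 0.72). Psmd13 (0.04), Psmd10 (0.19) and Psma2 (-0.04) did not pass. The base scaffold Psmd2 was the 1 higher member, with 886 in both DMSO libraries and 583 to 816 in the floxed GMP (0.40 ± 0.13, adjusted p = 0.012). The ubiquitin receptor Psmd4 had a value of -0.23 (adjusted p = 0.14).

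Psma8 was present at a low level in GMP, with 25.2 ± 10.8 (SD, n = 6) in the floxed libraries, and at 0 in all 6 Hoxb8 libraries. The floxed mean was 10.1 times a floor of 3 fragments a library in DMSO, 7.50 times in rapamycin and 9.60 times in SL0101-01. The lowest floxed library was 5.32, 3.94 and 5.04 times that floor, in the same order. Psmb11 stayed at 2.89 or less in every library. All 5 core assembly chaperones were lower in Hoxb8 DMSO, from Psmg3 (-1.69) to Pomp (-0.43), as were the 3 immunoproteasome subunits (Psmb8 -1.15, Psmb10 -1.15, Psmb9 -0.57). Of the 13 genes around Nfe2l1, 5 were called higher and 2 lower, beside 21.6% and 28.1% of all genes. Nfe2l2 and Mafg were higher, by 1.69 and 2.77 (limma adjusted p = 7.2e-07 and 1.5e-10), while the small Maf gene Maff had the lowest value (-2.14). Without Hoxb8 DMSO replicate 1, 11 members were called lower and Psmd2 was not called. Psmd2 was also not called without replicate 2, after rescaling to a common total, or with quantile normalisation (0.18, adjusted p = 0.27), where the 1 member called higher was a core gene.

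**Figure D5:**
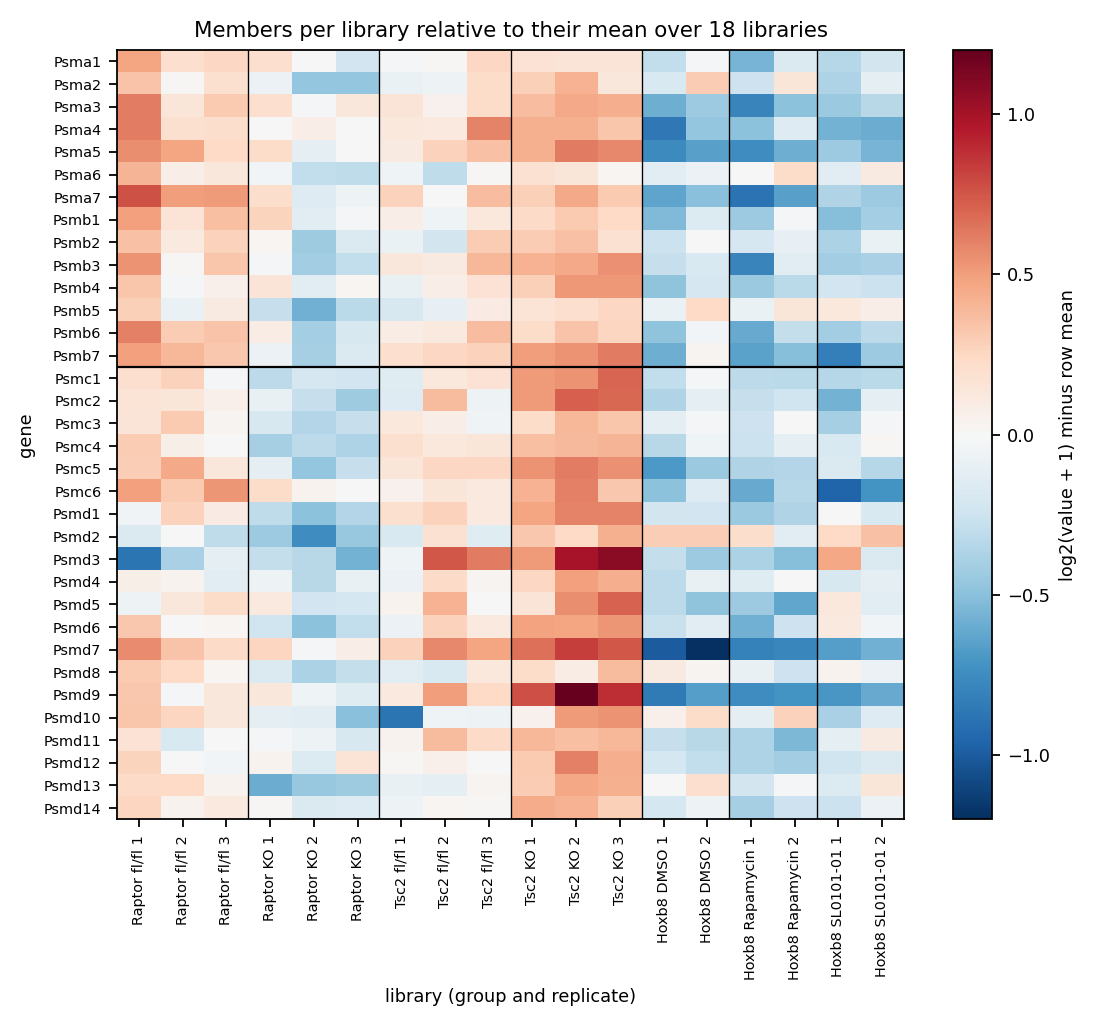
Level of 34 proteasome genes in each library as log2(value + 1) minus that gene's mean over the 18 libraries, with core genes above the horizontal line, regulatory genes below it and libraries by title group. Psmd7 is far below its mean in Hoxb8 DMSO (251 and 219.9) where Psmd2 is above it (886 in both), and Psmd9 is highest in Tsc2 KO replicate 2 (364).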

How the data were processed

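RNA from 12 sorted GMP samples and 6 Hoxb8 cultures was sequenced as low-input libraries, per the labels' protocols. BWA, TopHat2 2.0.10, Cufflinks 2.2.1 and Cuffnorm are named, per the submitters' processing notes, which name no genome build. The deposited values are a signal unit, fragments per gene divided by 1 size factor per library: 98.8% to 99.0% of a library's values were whole multiples of 1 step (tolerance 0.01), which gave the fragments per library.

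Values were tested as log2(value + 1) in limma 3.58.1 (R 4.3.3), two-sided, with variance trend and robust estimation. The GMP fit held 4 groups, the Hoxb8 fit 3 groups, and the comparison of cell sources all 18 libraries. Genes needed a value of 1 in at least 3 GMP or 2 Hoxb8 libraries. P-values were adjusted by Benjamini-Hochberg over all genes tested, at 0.05. No count model was used. Fold changes on this scale understate those of low genes. Members and lists were chosen with earlier results of these data known.

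Named genes are members past the threshold, up to 10 each way, the 3 highest and 3 lowest of each particle, and the catalytic, Psmd4, Psmd14 and immunoproteasome genes throughout; values per library are given for only some of them, and other members are named where the text describes them. On simulated data, 11.5%, 87.5% and 100% of genes changed 1.5, 2 and 4-fold were recovered for Tsc2 KO, with 4, 8 and 13 false calls, and 17.5%, 92% and 100% for rapamycin, with 0, 10 and 12. Alternatives covered scaling, filter, pseudocount, variance model, replicate block, libraries in the fit, single libraries left out and voom on recovered fragments. Transcript lengths are from GENCODE M21. One listed partner gene is not reported here. Genome coordinates of the genes were not used, and promoter windows carry their own build.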

Additional observations from a re-analysis of the deposited data

Results flagged for a closer look

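Both knockout effects differed from each other for 25 proteasome genes, by the test of the difference itself (Raptor effect minus Tsc2 effect, limma, log2 scale). In the alpha rings the differences were -0.77 for Psma2, -0.53 for Psma3, -0.69 for Psma5, -0.65 for Psma6 and -0.73 for Psma7. In the beta rings they were -0.72 for Psmb2, -0.80 for Psmb3, -0.77 for Psmb5, -0.67 for Psmb6 and -0.93 for Psmb7. Among the ATPases they were -0.93 for Psmc1, -0.97 for Psmc2, -0.71 for Psmc3, -0.71 for Psmc4, -0.93 for Psmc5 and -0.70 for Psmc6. In the base, Psmd1 differed by -0.85 and Psmd2 by -0.76. In the lid they were -0.85 for Psmd6, -0.59 for Psmd7, -0.77 for Psmd8, -1.12 for Psmd13 and -0.64 for Psmd14. Of the assembly factors, Psmd9 differed by -0.90 and Psmd10 by -1.19.

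Of the genes around the proteasome, the difference between the knockout effects was -0.79 for Adrm1, -0.74 for Pomp and -0.95 for Psmf1. It was 1.33 for Bach1, 1.55 for Mafg, 1.15 for Erap1 and 0.88 for Tap1.

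Rapamycin and SL0101-01 differed by -0.59 for Psmd3. Among the listed partner genes they differed by 0.46 for B2m, 0.74 for Erap1 and 0.56 for Rps27a. They differed by -0.60 for Keap1, -0.64 for Ngly1, -0.56 for Pdia3 and -0.49 for Vcp.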

How the results depend on the processing

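Direction was steadier than the number of calls. Over the settings run, 33 to 35 members were below 0 in Raptor KO, 32 to 35 were above 0 in Tsc2 KO, and all tested were below 0 in the difference (35 or, with no filter, 36 tested). Members called in Raptor KO (12) were 7 with quantile normalisation, 1 with no variance trend and 19 with only the groups compared; all genes called (522) were 215 with no trend and 1249 with only those groups. Members called in Tsc2 KO (7) were 2, 0 and 0 under those settings and 3 without the 2 Y-positive libraries; all genes (1638) were 929 and 471 with no trend and only those groups. In the difference, members (25) were 15 with quantile normalisation and 5 with no trend, and all genes (1646) were 714 with no trend. Between controls, all genes (80) were 133 at a common total, 4 with no trend, 30 with voom, 166 with only those groups and 37 without the Y-positive libraries. With no trend, all genes called were 188 for rapamycin, 97 for SL0101-01 and 14 between the inhibitors. Members called for SL0101-01 (0) were 1 with quantile normalisation and 2 each with the filter at 5, voom and only those groups. Between the inhibitors, members (1) were 0 with quantile normalisation, pseudocounts of 0.5 and 5, no trend and only those groups, and 4 at a common total; all genes (1047) were 542 with only those groups. The range of the regulatory mean over the 7 groups (0.82) was 0.99 at a common total.

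Without 1 library at a time, members called were 1 to 10 in Raptor KO, 0 to 10 in Tsc2 KO, 17 to 28 in the difference, 0 to 1 between controls, 0 to 1 for rapamycin, 0 to 1 for SL0101-01, 0 to 1 between inhibitors and 11 to 23 in Hoxb8 DMSO against GMP. All genes called were 146 to 402, 601 to 2498, 897 to 2519, 7 to 41, 540 to 1164, 323 to 868, 128 to 863 and 5485 to 7204, in the same order. Where a group kept 1 library, that library was assumed to vary like the other groups.

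By the rule of a correlation over 0.1 in every pair, same-numbered replicates did not pair in Raptor (0.0257, 0.0475 and 0.0103). In Tsc2, replicates 1 and 2 were over 0.1 (0.217 and 0.245) and replicate 3 was not (-0.0318), so the rule does not settle pairing there. In Hoxb8 cells the values were 0.0459 for DMSO with rapamycin, 0.0436 for DMSO with SL0101-01 and 0.00475 between the inhibitors. With 2 libraries a group, both replicates give the same value there, so it cannot test single replicates. With the replicate block, members called were 14 in Raptor KO, 8 in Tsc2 KO, 26 in the difference, 1 between controls, 3 for SL0101-01 and 5 between inhibitors, and all genes called were 169 between controls and 1691 between inhibitors. At this depth and number of libraries, changes of 1.5-fold were mostly missed in the simulation, where 200 genes changed and the rest were level. Its threshold can be stricter than in these data, where 1638 genes passed in Tsc2 KO and Psmd14 passed there at 1.31-fold. Its recovery therefore does not carry over to these members. Members that did not pass still cannot be called unchanged.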
